A study of Mus musculus with 4 samples.

Results

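The miR-148 and miR-152 family comprises the mature miRNA that are cut from 3 mouse hairpins, miR-148a, miR-148b and miR-152. Its members were taken by name, both arms of each hairpin, which gave 6 of the 1966 miRNA listed in the deposited tables. All 6 passed the filter on low counts and were among the 496 miRNA that were tested. A miRNA hairpin is processed into a short duplex whose arms are called 5p and 3p, and usually one of them is retained by Argonaute as the guide strand while the other is degraded. The guide finds its mRNA targets mainly through its seed, the bases near its 5′ end, so miRNA that share a seed are expected to share many targets. The family is known for repressing the DNA methyltransferase Dnmt1, and its targets also include the cell cycle inhibitor Cdkn1b.

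The 4 small RNA libraries came from primary neurons of the cortex, 2 from WT mouse embryos and 2 from transgenic (TgAD) embryos at stage E16.5, all kept for 5 days in vitro in a serum-free medium without any treatment. TgAD mice are a double transgenic model of Alzheimer's disease. One of their transgenes is APP, part mouse and part human and with the Swedish mutations. Expression is from prion promoter elements of the mouse. The neurons of each embryo were cultured separately, and the question that the comparison addresses is which miRNA differ in neurons that produce high amounts of amyloid β. With 2 libraries per genotype, an exact permutation test of a single value cannot give a two-sided p below 0.333, so tests were made with models fitted across all miRNA.

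The sum of counts per library was between 2070204 and 4811010 reads, and miR-99a-5p took 15.8% and 16.7% of them in WT and 27.0% and 31.8% in TgAD. Levels are therefore given as CPM, reads scaled to 1000000 per library, after TMM normalization, which limits the weight of a few dominant miRNA. A second deposited table holds normalized values of 674 miRNA, and whole reads could be recovered from all of its values. These reads went against the labels of the count tables. The column named for the first WT library held the counts of the library labelled TgAD 1 in 674 of 674 miRNA, and the column named for the second WT library held those of WT 1. The column named for the first TgAD library held the counts of TgAD 2, the second TgAD column matched no count table in more than 4.45% of the miRNA, and the counts of WT 2 stood in none of the columns. Groups were taken from the sample labels. The fold changes and ratios of the members and the calls of the other named miRNA are also given without the library labelled TgAD 1.

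Of 6 miRNA known to mark neurons, 4 were tested. Their summed level was 22059 to 35897 CPM in WT and 63379 to 88177 CPM in TgAD, and most of the sum was miR-128-3p. miR-128-3p (log2 fold change 1.49, adjusted p = 0.0294, edgeR) and miR-132-3p (0.95, adjusted p = 0.0377, edgeR) rose, whereas miR-138-5p at −0.63 and miR-218-5p at 0.35 did not pass the test. Without TgAD 1, miR-128-3p stood at 1.13 and was still called, miR-132-3p stood at 0.53 and was not, and miR-138-5p was called lower at −1.23 (adjusted p = 0.0167, edgeR), so the neuronal markers had no common direction. The defining neuronal miRNA miR-9-5p was listed at 0 in all 4 libraries and miR-124-3p had 1, 2, 7 and 4 reads, so the label could not be checked against these. All 3 oligodendrocyte markers and the liver marker miR-122-5p were at 0. As miR-9-5p was itself at 0, a 0 here and below is not read as absence of a miRNA or of a cell type. Of 7 vascular and mesenchymal markers 2 were tested, neither past the cutoffs, with sums of 718 to 903 CPM in WT and 757 to 829 CPM in TgAD, and miR-126a-3p, miR-126a-5p and miR-199a-3p were at 0. Of 5 myeloid markers 3 were tested, none past the cutoffs, with sums of 743 to 939 CPM and 880 to 1080 CPM and with miR-142a-3p at 0. Most of the vascular and mesenchymal sum was miR-143-3p, and most of the myeloid sum was miR-146a-5p. Of 4 erythroid markers, miR-451a alone was tested and fell (log2 fold change −0.72, adjusted p = 0.0707, edgeR, and −1.12 without TgAD 1), and the sums were 1310 to 1331 CPM and 646 to 957 CPM, with miR-486a-5p at 0. miR-128-3p, miR-132-3p and miR-451a were the markers that moved with genotype over all 4 libraries, and their part in the results on the family was not tested.

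The mature sequences are shown first because they set out which members can bind the same sites. They were taken from RefSeq for the build GRCm38.p6, are written 5′ to 3′, and have the seed, bases 2 to 8, in capitals.

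mmu-miR-148a-3p: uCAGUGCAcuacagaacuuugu
mmu-miR-148b-3p: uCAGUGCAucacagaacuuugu
mmu-miR-152-3p: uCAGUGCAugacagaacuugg
mmu-miR-148a-5p: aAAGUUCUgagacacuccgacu
mmu-miR-148b-5p: gAAGUUCUguuauacacucaggcu
mmu-miR-152-5p: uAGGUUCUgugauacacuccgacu

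All 3 of the 3p arms shared the seed CAGUGCA, and none of the other mature miRNA in the reference table had it. The 5p arms of miR-148a and miR-148b shared the seed AAGUUCU, and that of miR-152 differed from it. Counted from 1 at the 5′ end, miR-148a-3p differed from miR-148b-3p by C9U and U10C, so that 20 of 22 bases were the same, and the longest run they share is 12 bases. From miR-152-3p it differed by C9U, U10G and U20G, with 18 of 21 bases the same. Between miR-148b-3p and miR-152-3p the differences were C10G and U20G, with 19 of 21 bases the same. The counted reads had to match the genome without mismatch, and each of the 6 mature sequences occurred in 1 hairpin of the reference table.

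The 3 hairpins lie on different chromosomes, with coordinates from GENCODE M21 on GRCm38. Mir148a lies at chr6:51269812-51269910 on the minus strand, outside of annotated genes, and the nearest protein-coding gene, Nfe2l3, is 162760 bp away. Mir148b lies at chr15:103285125-103285221 on the plus strand, in intron 1 of Copz1 in 4 transcripts. Mir152 lies at chr11:96850393-96850465 on the plus strand, in intron 1 of Copz2 in 3 transcripts and outside of 2 other transcripts of that gene. Copz1 and Copz2 encode the zeta subunits of the coatomer complex of COPI vesicles, and both introns run in the direction of their miRNA.

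mmu-miR-148a-3p was the dominant member and was higher in TgAD neurons. Its reads numbered 61314 in WT 1, 57010 in WT 2, 107071 in TgAD 1 and 260430 in TgAD 2. Normalized, the WT libraries stood at 26084 and 19571 CPM and those of TgAD at 39004 and 64730 CPM, with means of 22828 ± 4606 and 51867 ± 18191 CPM (SD, n = 2 each). Both TgAD libraries lay above both WT libraries, and TgAD 2 lay well above TgAD 1. The log2 fold change was 1.18 (SE 0.31, 95% interval 0.43 to 1.94), a 2.27-fold increase with an adjusted p = 0.0385 by edgeR's quasi-likelihood test. It passed the cutoffs that the study set, 0.6 for the size of the log2 fold change and 0.1 for the adjusted p. By this test it did not pass the stringent pair of 1 and 0.01. With DESeq2, the tool that the study used, it passed both pairs (1.17, adjusted p = 0.000625, DESeq2). In these bulk cultures, more cells that express a miRNA and more of it per cell cannot be told apart.

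The call of miR-148a-3p rested on the library labelled TgAD 2. Without that library its log2 fold change was 0.77 with an adjusted p of 0.131, whereas without TgAD 1 it was 1.42 with an adjusted p of 0.0183 (edgeR). As a share of all counted reads, miR-148a-3p took 2.96% and 2.07% in WT and 3.88% and 5.41% in TgAD, where each exact 95% binomial interval was narrower than these gaps and covers counting error only. By abundance it ranked 7 and 13 among the miRNA of WT 1 and WT 2, and 7 and 3 among those of TgAD 1 and TgAD 2.

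**Figure D1:**
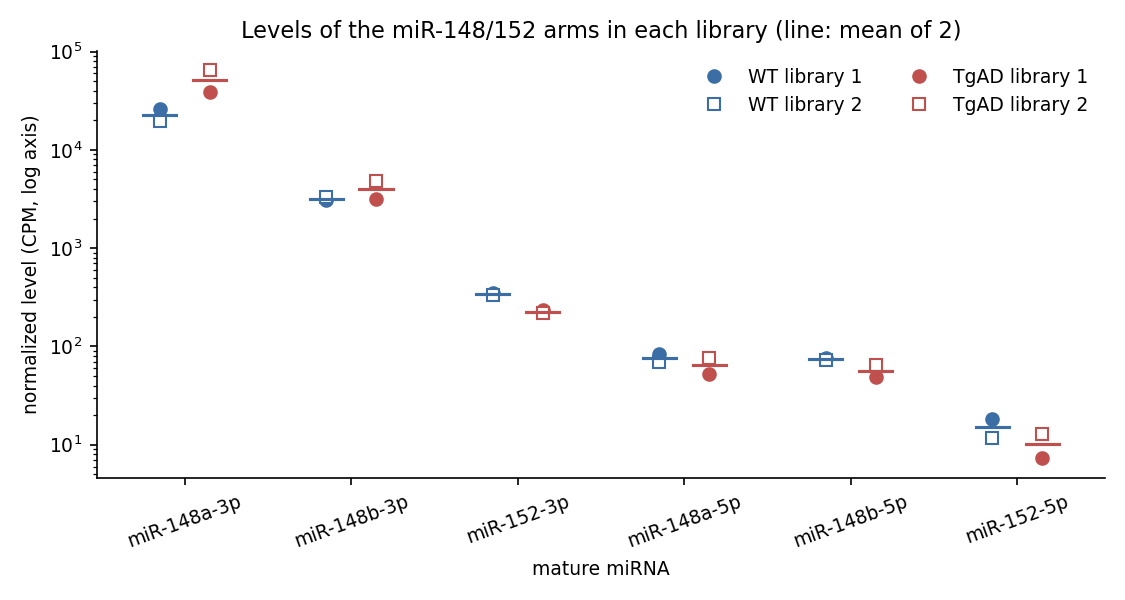
The plot shows the normalized level of each of the 6 arms in each of the 4 libraries, in CPM on a log axis, with a line at the mean of the 2 libraries of a genotype. The TgAD points of miR-148a-3p lie above both WT points, those of miR-152-3p and miR-148b-5p lie below, and those of the other 3 arms overlap.

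mmu-miR-148b-3p, which differs from miR-148a-3p by 2 bases past the seed, did not pass the test. Its reads were 7181 and 9742 for WT against 8589 and 19428 for TgAD, or 3055 and 3344 CPM against 3129 and 4829 CPM. TgAD 1 lay between the WT libraries and TgAD 2 lay above them. The log2 fold change was 0.31 (SE 0.25, 95% interval −0.30 to 0.93, adjusted p = 0.408, edgeR), and without TgAD 1 it was 0.51 with an adjusted p of 0.127. Without TgAD 2 its direction turned, at −0.031. With a correction for the GC content of the mature sequence it was 0.70 with an adjusted p of 0.0708, past the cutoffs, and with total counts as library size it was 0.029.

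mmu-miR-152-3p was lower in TgAD, with a size just inside the 0.6 cutoff. Its reads were 825 and 964 for WT against 643 and 877 for TgAD. These were 351 and 331 CPM in WT and 234 and 218 CPM in TgAD, or 341 ± 14.2 against 226 ± 11.5 CPM (SD, n = 2 each). The groups did not overlap, and the gap between them was larger than the spread within either. The log2 fold change was −0.59 (SE 0.19, 95% interval −1.04 to −0.14), which is 33.7% lower, with an adjusted p = 0.0618 (edgeR). It was therefore not called. The log2 fold change of miR-152-3p was −0.55 without WT 1, −0.63 without WT 2, −0.73 without TgAD 1 and −0.54 without TgAD 2.

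The 5p arms, which are the less abundant strand of all 3 hairpins, had 20 to 306 reads per library, and none of them passed the test. The reads of mmu-miR-148a-5p were 195 and 201 for WT against 144 and 306 for TgAD, at 83.0 and 69.0 CPM against 52.5 and 76.1 CPM, with overlapping groups (log2 fold change −0.24, SE 0.27, adjusted p = 0.564, edgeR). mmu-miR-148b-5p stood at 77.0 and 73.5 CPM in WT and 49.2 and 64.4 CPM in TgAD, where both TgAD libraries were lower (−0.40, SE 0.25, adjusted p = 0.295, edgeR). For mmu-miR-152-5p, the rarest member, reads were 43 and 34 for WT against 20 and 52 for TgAD, at 18.3 and 11.7 CPM against 7.29 and 12.9 CPM, with overlapping groups (−0.53, SE 0.41, adjusted p = 0.393, edgeR). At these counts the 95% intervals of the 3 arms reached from −0.90 to 0.42, from −0.99 to 0.19 and from −1.53 to 0.47 on the log2 scale, so decreases larger than the cutoff lay within all 3 of them. Without TgAD 1 the values were −0.08, −0.31 and −0.28, none past the cutoffs.

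In all, 1 of 6 members was called, and it was higher in TgAD. Over the 496 tested miRNA, 33.1% were called, 15.7% higher and 17.3% lower, and 4.44% passed the stringent cutoffs, so the share of called members was not above that of miRNA in general. Without TgAD 1, 2 of 6 members and 36.3% of the tested miRNA were called, 14.1% higher and 22.2% lower. The groups did not overlap in 3 of 6 members and in 63.1% of all tested miRNA. The median log2 fold change was −0.32 over the 6 members and 0.032 over all tested miRNA, whose quartiles were −0.53 and 0.53. miR-148a-3p stood above the upper quartile and miR-152-3p below the lower one.

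**Figure D2:**
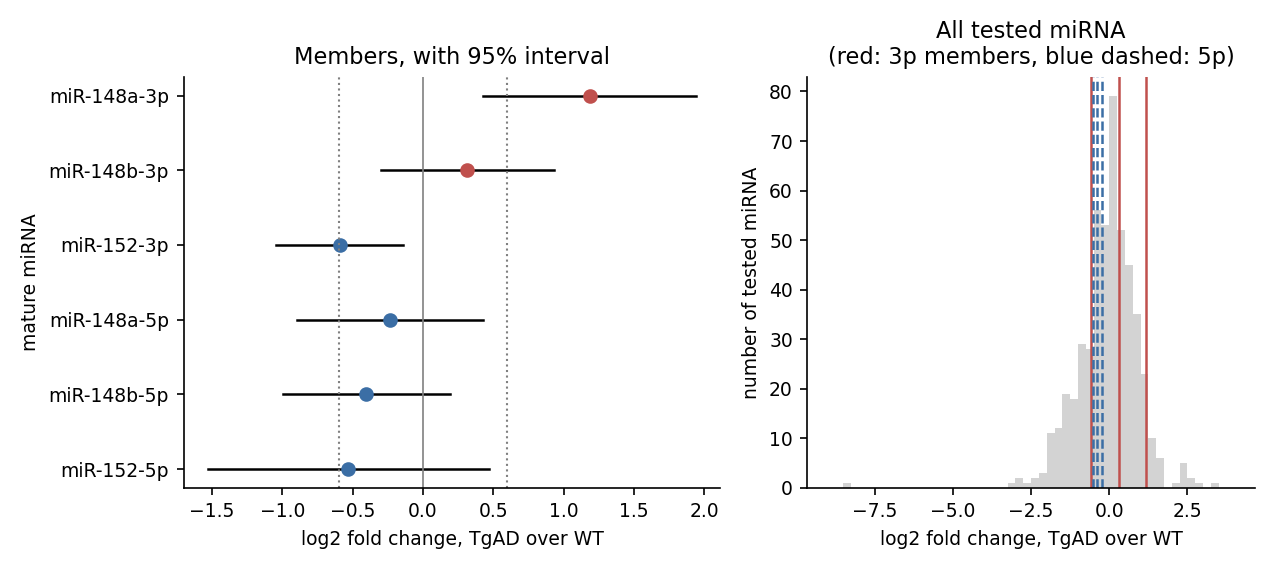
The left panel shows the log2 fold change of each member, TgAD over WT, with its 95% interval, red above 0 and blue below, and dotted lines at the 0.6 cutoff. The right panel shows the distribution of this value over all 496 tested miRNA, with the 3p members as red lines and the 5p members as blue dashed lines, and miR-148a-3p is the only member beyond 0.6.

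Because the 3p arms share a seed, their summed CPM gives the relative level of reads with this seed in each library. This sum came to 26368 ± 4415 CPM for WT and to 56072 ± 19381 CPM for TgAD (SD, n = 2 each), a ratio of 2.13 that was nearly all miR-148a-3p and is given without a test. The sum of the 5p arms was 166 ± 17.1 and 131 ± 31.4 CPM. Of the reads of all 6 arms, miR-148a-3p took 87.9% and 83.6% in WT and 91.8% and 92.6% in TgAD. The share of miR-148b-3p was 10.3% and 14.3% in WT and 7.37% and 6.91% in TgAD, and that of miR-152-3p was 1.18% and 1.41% in WT and 0.551% and 0.312% in TgAD. Both TgAD libraries thus held a larger share of miR-148a-3p and smaller shares of the other 2 than both WT libraries. As parts of 1 total, the other shares together must fall where that of miR-148a-3p rises. In CPM, miR-148b-3p overlapped between the genotypes, at 3055 and 3344 in WT and 3129 and 4829 in TgAD.

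Ratios of reads within a library do not depend on its scaling, and they were used to test whether members with the same seed moved differently. There were 74.3 and 59.1 reads of miR-148a-3p per read of miR-152-3p in WT and 167 and 297 in TgAD. This log2 ratio was higher in TgAD by 1.75 (SE 0.44, 95% interval 0.69 to 2.80, adjusted p = 0.0480, limma), a difference that was called at an adjusted p under 0.1, as were 26.4% of the 780 pairs of tested miRNA with a common seed and arm. Without TgAD 1 it was 2.16 with an adjusted p of 0.0718. It was no longer past the threshold without WT 1 (1.91, adjusted p = 0.130), WT 2 (1.58, adjusted p = 0.139) or TgAD 2 (1.33, adjusted p = 0.200, limma).

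The other pairs did not pass. There were 8.54 and 5.85 reads of miR-148a-3p per read of miR-148b-3p in WT and 12.5 and 13.4 in TgAD, a log2 difference of 0.87 (SE 0.40, 95% interval −0.08 to 1.82, adjusted p = 0.173, limma). For miR-148b-3p over miR-152-3p the ratios were 8.70 and 10.1 in WT and 13.4 and 22.2 in TgAD, a log2 difference of 0.87 (SE 0.42, 95% interval −0.13 to 1.88, adjusted p = 0.192, limma). The groups did not overlap in either pair, and the share of the 780 tested pairs without overlap was not counted. The 5p arms of miR-148a and miR-148b, whose seed is the same, stood at nearly equal reads, with ratios of 1.08 and 0.939 in WT and 1.07 and 1.18 in TgAD (difference 0.16, SE 0.37, 95% interval −0.73 to 1.05, adjusted p = 0.793, limma). Without TgAD 1 the 3 differences were 0.92, 1.24 and 0.23, none past the threshold.

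The rise of miR-148a-3p was not matched by the other arm of its hairpin. There were 314 and 284 reads of miR-148a-3p per read of miR-148a-5p in WT and 744 and 851 in TgAD, so both TgAD libraries were far above both WT libraries. How many of the 138 hairpins had groups without overlap in this ratio was not counted. The log2 ratio was higher in TgAD by 1.41 (SE 0.30, 95% interval 0.69 to 2.14, adjusted p = 0.0290, limma), or 2.66-fold. Without TgAD 1 it was 1.51 (adjusted p = 0.00907, limma). Over the 138 hairpins with both arms tested, 23.9% had a ratio called higher in TgAD and 40.6% one called in either direction, the median difference was 0.10, and that of miR-148a ranked 18 from the highest. Without WT 2 the value was 1.34 and its adjusted p 0.108, over the threshold.

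The ratio of miR-148b-3p to miR-148b-5p was 39.7 and 45.5 in WT and 63.6 and 75.0 in TgAD, and the log2 difference of 0.70 missed the threshold (SE 0.30, 95% interval −0.03 to 1.44, adjusted p = 0.130, limma). The arms of miR-152 showed no common direction. The ratio was 19.2 and 28.4 in WT and 32.2 and 16.9 in TgAD, and the log2 difference was −0.008 (SE 0.42, 95% interval −1.03 to 1.01, adjusted p = 0.993, limma), and a log2 change of 1 in either direction lay just inside this interval. Without TgAD 1 the differences were 0.82 for miR-148b and −0.46 for miR-152, neither past the threshold.

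**Figure D3:**
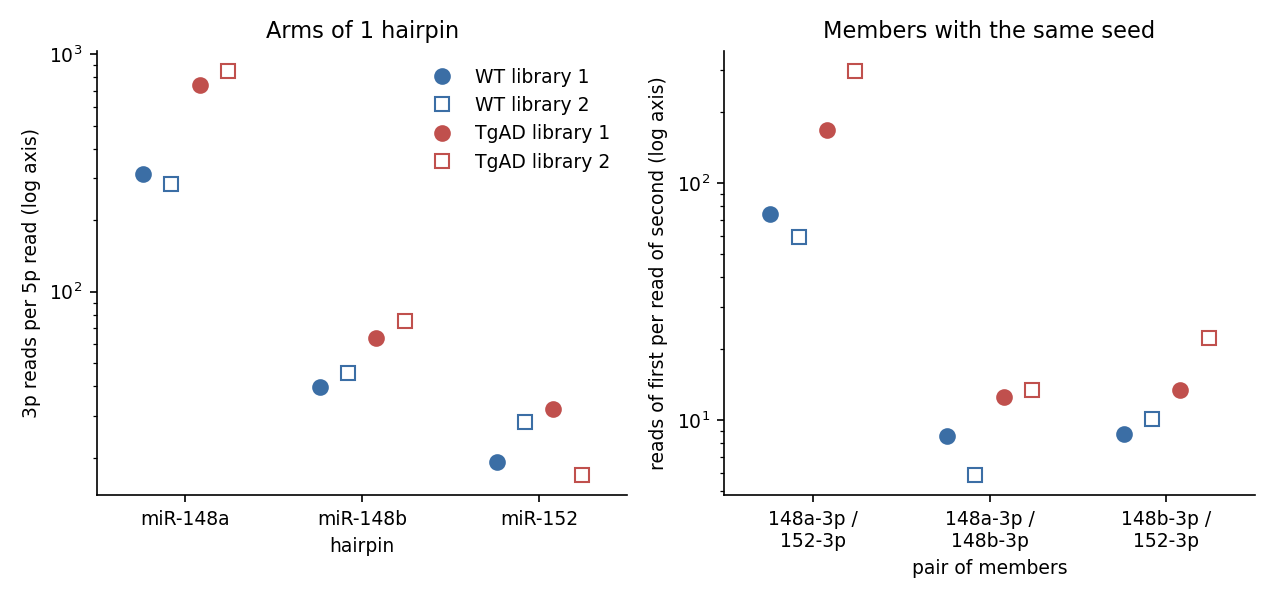
The plots show, for each library and on log axes, the reads of the 3p arm per read of the 5p arm of each hairpin (left) and the reads of 1 member per read of another with the same seed (right). The TgAD points lie above the WT points for miR-148a and miR-148b on the left and for all 3 pairs on the right, and they straddle the WT points for miR-152.

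The results on the 3p arms differed in how far they depended on the settings. miR-148a-3p was past the cutoffs in each of the 8 other settings of scaling, filter or tool that kept all count libraries and the same design, with log2 fold changes of 0.89 to 1.57 and adjusted p of 0.000242 to 0.0453. In the same 8 settings miR-152-3p was between −0.85 and −0.59 with adjusted p of 0.0284 to 0.106, and it was past the cutoffs of 0.6 and 0.1 in 5 of them. With the total counts as library size the median of all tested miRNA moved to −0.23 and 26.1% of the calls were higher in TgAD instead of 47.6%. Under that scaling miR-148a-3p was still higher at 0.89 and miR-148b-3p stood at 0.029.

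**Figure D4:**
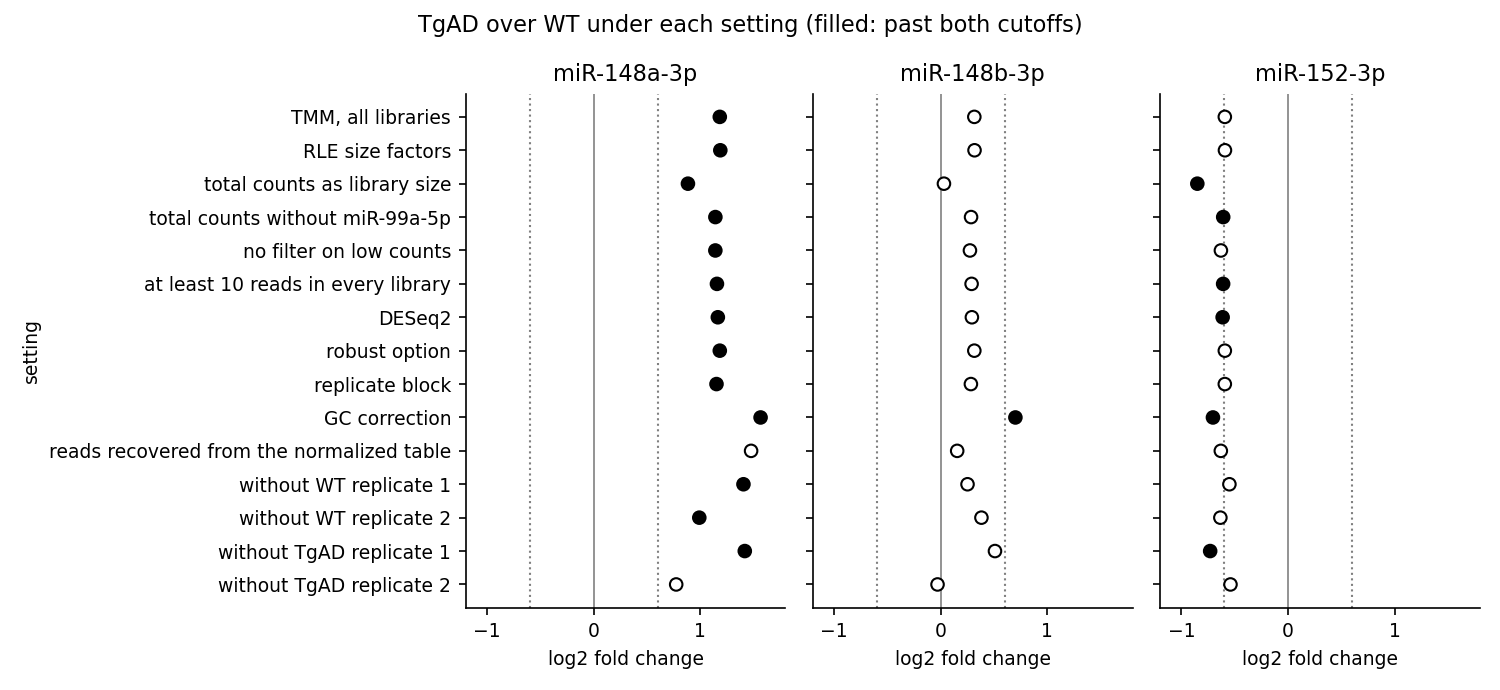
Each point is the log2 fold change, TgAD over WT, of 1 of the 3p arms under 1 setting, named on the vertical axis, and it is filled where both cutoffs were passed, with dotted lines at 0.6 in either direction. miR-148a-3p is open only without TgAD 2 and with the reads recovered from the normalized table, whereas miR-152-3p stays near the lower cutoff and changes between open and filled.

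Other miRNA were taken for their relation to the family. The family of miR-130 and miR-301 has a seed that overlaps that of the 3p arms after a shift of 1 base, as in miR-130a-3p.

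mmu-miR-130a-3p: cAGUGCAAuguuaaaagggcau

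Of its 5 listed members, 4 were tested, none was higher in TgAD and 1 was lower. miR-301a-3p had 369 and 406 CPM in WT and 229 and 184 CPM in TgAD, without overlap (log2 fold change −0.91, SE 0.21, adjusted p = 0.0276, edgeR). miR-130a-3p itself stood at −0.43 and miR-130b-3p at −0.08, neither past the test, and miR-721 was listed at 0. The median of the 4 was −0.44, and over all tested miRNA 17.3% were called lower. Without TgAD 1, miR-301a-3p stood at −1.16, and miR-130a-3p at −0.80 and miR-301b-3p at −0.87 were then also called lower (adjusted p = 0.0557 and 0.0924, edgeR), where 22.2% of all tested miRNA were. None of the 4 was called higher with all libraries, where 15.7% of all tested miRNA were.

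Of 9 other miRNA known to target DNA methyltransferases, 6 were tested, none was higher in TgAD and 3 were lower, with a median of −0.93, where 15.7% of all tested miRNA were called higher and 17.3% lower. The miR-101 family, which also represses the histone methyltransferase Ezh2, was the most abundant of them. miR-101a-3p fell from 23673 and 27515 CPM in WT to 9983 and 8983 CPM in TgAD (log2 fold change −1.43, adjusted p = 0.00943, edgeR), and miR-101b-3p fell by 1.46 on the log2 scale (adjusted p = 0.00934, edgeR). miR-29c-3p, of a family that represses the de novo methyltransferases, fell from 45.1 and 34.0 to 6.56 and 10.4 CPM (−2.19, adjusted p = 0.0104, edgeR). miR-342-3p stood at 0.062 and miR-29a-3p at −0.42, neither past the test, and miR-185-5p and miR-126a-3p were listed at 0. Without TgAD 1, miR-101a-3p, miR-101b-3p and miR-29c-3p were still called, at −1.60, −1.65 and −1.998, and miR-29a-3p was called as well, at −0.64 (adjusted p = 0.0659, edgeR). Summed over the 9 miRNA, the level was 42602 to 47592 CPM in WT and 21515 to 24376 CPM in TgAD, the reverse of the order of miR-148a-3p, and miR-101a-3p and miR-342-3p made up the largest parts of it in TgAD.

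Of 3 other miRNA known to target Cdkn1b, which restrains entry into S phase, miR-221-3p and miR-222-3p were tested and neither passed (log2 fold changes −0.36 and 0.44), and miR-24-3p was listed at 0. Without TgAD 1, miR-222-3p was called higher at 0.70 (adjusted p = 0.0647, edgeR) and miR-221-3p stood at −0.16.

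The miRNA whose pattern over the 4 libraries was most like that of a member were found by the distance between log2 CPM values centred on their mean, among 219 other miRNA with a mean of at least 100 CPM. For miR-148a-3p these were miR-3059-5p at a distance of 0.22, let-7d-3p at 0.28 and miR-484 at 0.37, where the median of the candidates was 1.35. Their log2 fold changes were 0.997, 1.02 and 0.90, and 1.16, 1.14 and 1.08 without TgAD 1. miR-3059-5p had 205 and 162 CPM in WT and 297 and 435 CPM in TgAD, and like miR-148a-3p it was lowest in WT 2 and highest in TgAD 2. For miR-152-3p they were miR-30e-5p at 0.047, miR-708-5p at 0.085 and let-7d-5p at 0.093, against a median of 0.83. Their log2 fold changes were −0.63, −0.61 and −0.59, and −0.76, −0.75 and −0.68 without TgAD 1. miR-30e-5p had 12162 and 11673 CPM in WT and 7904 and 7465 CPM in TgAD. The arms of let-7d thus lay near different members, its 3p arm near miR-148a-3p and its 5p arm near miR-152-3p, which is a description over 4 libraries. Fold changes close to those of the members follow from the choice, which used these same values.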

How the data were processed

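Small RNA of WT and TgAD cortical neurons was sequenced, 2 libraries per genotype, and groups were taken from the sample labels. The authors mapped reads to GRCm38 with Bowtie2 without mismatch, counted them on mature miRNA of miRBase with HTSeq-count, and deposited 1 table of raw counts per library. They also deposited a table of normalized signal, reads scaled by the size factor of each library, in which 100% of values were whole multiples of 1 read (tolerance 0.1), and the test on these reads was used only as an alternative.

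Counts were analyzed with edgeR 4.0.16 in R 4.3.3 (TMM, filterByExpr, quasi-likelihood test with genotype as the only factor), with Benjamini-Hochberg adjustment over the 496 tested miRNA. Log2 ratios of reads, with 0.5 added to each count, were tested with limma 3.58.1 over 138 hairpins and over 780 pairs with the same bases 2 to 8. CPM use TMM-scaled library sizes. A count of 3 reads, 0.746 to 1.28 CPM, was taken as the floor. Mature sequences and GC content came from RefSeq, where 1675 of 1966 names matched, 441 of the 496 tested. Alternatives were other scalings, filters, DESeq2 1.42.0, a GC correction by local regression (span 0.75, prior count 2), a replicate block and leaving out each library. The procedures were also run on simulated counts, and the outcome of that run is not given here. Tables used pandas 2.3.3 in Python 3.11.15, and plots used matplotlib 3.10.9.

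The named miRNA were all 6 members, lists of miRNA with a seed shifted by 1 base or with known targets in common, cell type markers, and the 3 miRNA nearest in pattern to miR-148a-3p and to miR-152-3p. One further list of miRNA is not reported here. The members and lists were chosen with earlier results of these data known. The labels give no batch, and reads without molecular identifiers carry counting error only in their intervals. Per the labels the reads were paired-end and 50 bp long, and per the methods of the study they were single-end.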

Additional observations from a re-analysis of the deposited data

Results flagged for a closer look

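The second TgAD column of the normalized table, which matched none of the count tables and was used in no comparison between the count libraries, held a signal of miR-148a-3p above that of the WT libraries. Its recovered reads gave 153393 reads of miR-148a-3p out of 1926952, or 79604 per 1000000 reads (CPM of the column's own total), where the WT libraries had 20711 and 29617 CPM of their totals. It also had 2191 reads of miR-148a-3p per read of miR-148a-5p and 720 per read of miR-152-3p, both higher than in any of the 4 count libraries. Every other member took a lower share of reads in this column than in any of the 4 count libraries. Among them were miR-148b-3p at 1427 and miR-152-3p at 111 CPM of the column's total. The sample behind this column is not known from the count tables, and none of these differences was tested. With 2 libraries per genotype, single libraries were not tested as outliers.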

How the results depend on the processing

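Over the alternatives to the results on members, ratios, counts and shares, 145 values stayed the same, 17 became stronger, 9 weaker and 3 reversed. For fold changes and ratios, the same means that direction and side of the threshold were kept. For counts it means a number of similar size, and for shares a move smaller than the SD. Without 1 library, the log2 fold change ranged from 0.77 to 1.42 for miR-148a-3p, from −0.031 to 0.51 for miR-148b-3p (−0.031, reversed, without TgAD 2) and from −0.73 to −0.54 for miR-152-3p, with 0 to 2 members called. Log2 ratio differences ranged from 1.31 to 1.51 for the arms of miR-148a, from −0.46 to 0.45 for those of miR-152 (reversed at 0.27 without WT 2 and 0.45 without TgAD 2) and from 1.33 to 2.16 for miR-148a-3p over miR-152-3p. In these fits a lone library is assumed to vary like those of the other genotype. miR-152-3p passed the cutoffs with total counts (−0.85), total counts without miR-99a-5p (−0.61), at least 10 reads in every library (−0.61), DESeq2 (−0.61) and the GC correction (−0.70), and miR-148b-3p with the GC correction (0.70), so that 2, 2, 2, 2 and 3 members were called. With a variance trend in limma, miR-148a-3p over miR-148b-3p (0.87), miR-148b-3p over miR-152-3p (0.87) and the arms of miR-148b (0.70) passed. With the reads recovered from the normalized table, columns taken by name, miR-148a-3p was at 1.48 (adjusted p = 0.443, edgeR), and 0 miRNA and 0 members were called, with 54 miRNA at an unadjusted p under 0.05. The cause of these changes was not tested.

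The replicate numbers came from the sample titles, which do not name embryos. The deviations of WT 1 and TgAD 1 from their group means correlated weakly over the 496 miRNA (Pearson r = 0.216, Spearman rho = 0.164), which does not pair 2 libraries with 2. The replicate block raised the count of called miRNA from 164 to 188, left miR-148a-3p called at 1.15, and moved the arms of miR-148b (0.70, adjusted p = 0.0979, limma) past the threshold. The stringent count of 22 miRNA was 102 with the block, 0 with RLE factors, 86 with total counts, 42 without miR-99a-5p in them, 97 without a filter, 50 with at least 10 reads, 67 with DESeq2, 32 with the robust option, 0 with the recovered reads, and 14 to 54 without 1 library. Counts of 20 reads, the lowest of miR-152-5p, limit what can be said of the 5p arms.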
